A study of Danio rerio with 18 samples.

Results

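The comparison described here sets stressed zebrafish larvae against basal larvae, averaged over 2 behavioural archetypes, and asks which genes moved the same way in both. All 18 libraries of the series entered it, each made from 1 whole larva. The contrast was the mean of the resilient stressed and susceptible stressed groups minus the mean of the resilient basal and susceptible basal groups, so that each archetype weighed the same. Among 22038 genes tested, 334 passed the threshold of an adjusted p below 0.05 (1.52%), by edgeR's quasi-likelihood test with Benjamini-Hochberg adjustment. Of these, 145 were higher after stress (0.658% of all genes tested) and 189 were lower (0.858%). A stricter set, called the same-way genes below, needed a call in the averaged contrast, the same sign in both archetypes and an unadjusted p below 0.05 within each archetype. It held 145 genes (0.658%), 74 higher (0.336%) and 71 lower (0.322%).

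The larvae were wildtype fish of the AB strain, collected at 7 days post fertilization (dpf). They had been separated into resilient and susceptible larvae at 6 dpf and left to rest for a day. The resilient stressed and susceptible stressed groups held 5 larvae each and were taken 30 minutes after a stress that lasted 5 minutes. The resilient basal and susceptible basal groups held 4 larvae each and were taken without that stress. No group carried a mutation, transgene or drug in the labels. The stressor, the scoring of the archetypes and the clutch and day of each larva are not given in the sources here. The labels used here also give no hour of collection. A difference in hour between stressed and basal larvae could therefore not be told apart from stress. Totals ranged from 8452595 to 23801175 reads per larva. Levels are given as counts per 1000000 reads (CPM) after scaling between libraries, which is a scale for comparing larvae and not genes of different length. Fold changes are of stressed over basal larvae on the log2 scale, with ± giving the standard error (SE). Defining markers of several organs were read in every larva, among them 376 to 498 CPM of elavl3 (neurons), 455 to 883 CPM of fabp10a (liver) and 27.5 to 132 CPM of mpx (neutrophils). In whole-larva RNA, fewer cells of a type and less RNA per cell cannot be told apart.

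In fish, a stressor is relayed from the hypothalamus through corticotropin-releasing hormone to the pituitary, which releases a hormone cut from the pro-opiomelanocortin precursor, and from there to the interrenal gland, which makes cortisol. Cortisol acts through the glucocorticoid receptor, a transcription factor that raises genes such as fkbp5, tsc22d3 and klf9. Immediate early genes respond sooner: fos, egr and ier family members are transcribed within minutes of neuronal or cellular activation without the need for new protein.

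The averaged response of the called genes was mostly small, and most of these genes changed more in resilient than in susceptible larvae. The median absolute log2 fold change of the 334 called genes was 0.413 in the averaged contrast, 0.585 within resilient larvae and 0.242 within susceptible larvae. Of the 334 genes, 317 had the same sign in both archetypes (1.44% of all genes tested, 140 higher and 177 lower) and 17 had opposite signs (0.0771%). Across all genes tested, 55.2% had the same sign in both. A call in the average itself favours genes with the same sign, so the 317 are a description. The change was larger in resilient larvae for 280 of the 334 called genes (1.27% of all genes tested) and for 100 of the 145 same-way genes (0.454%). How often this held over all genes tested was not counted, so whether it is particular to the called genes cannot be said. Within resilient larvae alone 1399 genes were called (6.35%), and 262 of the 334 were among them. At an unadjusted p below 0.05 there were 4755 genes (21.6%) within resilient larvae. Within susceptible larvae edgeR's quasi-likelihood test called 0 genes, with 1642 genes (7.45%) at an unadjusted p below 0.05, while DESeq2 called 48 and limma-voom 0. The other 72 genes of the 334 were called in the averaged contrast and not within resilient larvae. The same-way genes are a description of where the calls lie, since the rule that picks them uses the archetype values themselves.

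**Figure D1:**
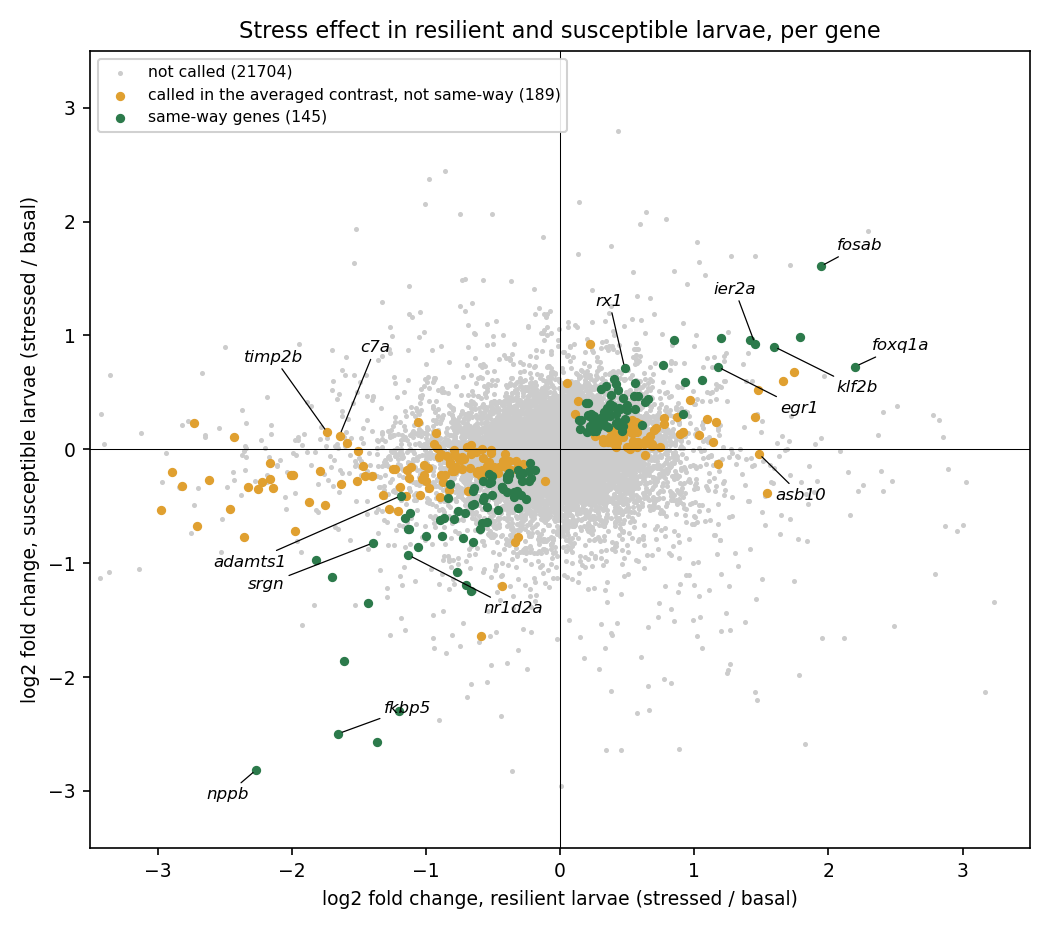
Log2 fold change of stressed over basal larvae in resilient larvae (x axis) and in susceptible larvae (y axis), 1 point per gene tested. The 145 same-way genes lie in the upper right and lower left. Among them fosab lies far up, foxq1a far to the right, and nppb and fkbp5 far down. Called genes such as c7a, timp2b and asb10 lie near 0 in susceptible larvae. Outside the axes fall 38 genes, 2 of them called.

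Larvae of one archetype gave no value to the other archetype's contrast, so the direction of a gene in the second set of larvae can be read against the genes picked in the first. Of the 741 genes higher in susceptible stressed larvae at an unadjusted p below 0.05, 67.5% were also above 0 in resilient larvae, against 50.8% of all genes tested. Of the 901 lower ones, 57.4% were below 0 in resilient larvae, against 49.2% of all genes. Picked the other way, 54.6% of 2215 resilient-higher genes were above 0 in susceptible larvae, against 49% of all genes, and 64.2% of 2540 resilient-lower genes were below 0, against 51%. Across the 20464 genes with a mean of at least 1 CPM, the log2 fold changes of the archetypes had a Pearson r of 0.0674 and a Spearman coefficient of 0.124, given as a description, since genes share libraries and are not independent. The same sign was thus somewhat more frequent than over all genes in each of the 4 sets, and the measured fold changes were only weakly correlated across genes. Noise in fold changes from few larvae per group lowers such a correlation, so it does not show that the responses were unrelated.

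The number of calls depended on single larvae. With 1 larva left out in turn, between 55 genes (without susceptible basal larva 2) and 679 genes (without resilient stressed larva 5) were called, and 13 of the 18 fits moved the count by more than 1.5 times. The same-way genes ranged from 33 to 214, with the same larvae at the ends. Leaving out resilient basal larvae 1 and 3 together gave 0 calls in edgeR, with 2421 genes at an unadjusted p below 0.05. Leaving out resilient stressed larvae 2 and 3 gave 15 and leaving out susceptible basal larvae 1 and 2 gave 43. A fit with 1 surrogate variable called 1 gene, adamts1. DESeq2 called 975 genes and 256 same-way genes. Scaling by upper quartiles gave 347 calls and again 145 same-way genes, but split as 89 higher and 56 lower. No sign turned among the 82 called genes chosen for naming under any of these settings, and 30 of the 82 stayed called with each larva left out. The settings reuse most of the same larvae, and called genes are large against their SE, so a kept sign adds no separate support. Susceptible basal larva 2 ended 49 of the 82 calls when left out, resilient stressed larva 2 ended 45, resilient basal larva 1 ended 42, resilient basal larva 3 ended 40 and susceptible stressed larva 5 ended 38. Each of the other larvae ended between 1 and 33.

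**Figure D2:**
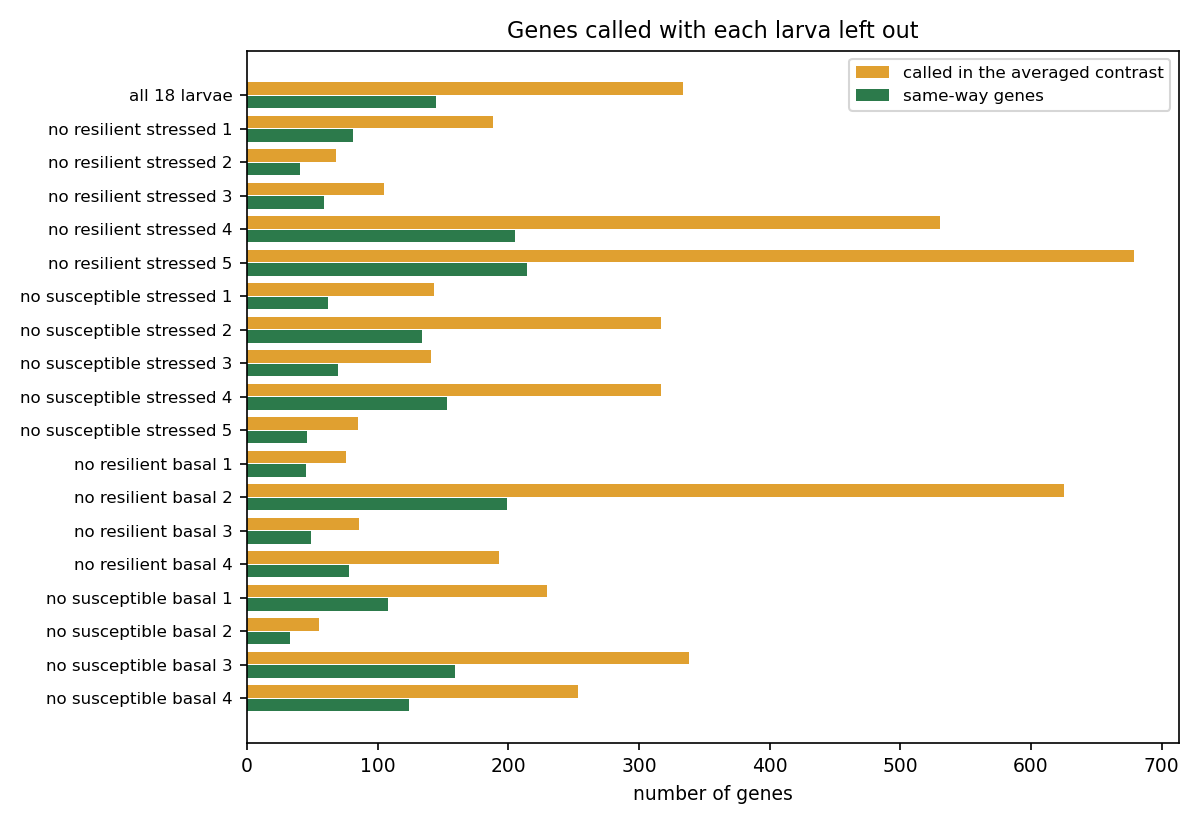
Number of genes called in the averaged contrast (orange) and of same-way genes (green) with all 18 larvae and with each larva left out in turn; bars start at 0. The counts run between 55 and 679 for calls and between 33 and 214 for same-way genes, with susceptible basal larva 2 at the low end and resilient stressed larva 5 at the high end.

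Genes that separated every stressed larva from every basal larva were few. In 9 genes (0.0408% of those tested) all 10 stressed larvae lay on one side of all 8 basal larvae, and all 9 were same-way genes. Among them were ier2a, rx1, pim2, znf1159, prdm13, cited2 and rnf165a, each above, and srgn, below. In 37 genes (0.168%) the ranges were apart in the same direction within both archetypes, and 30 of these were same-way genes. The ranges and the same-way rule use the same values, so this overlap adds no support to the rule. The heatmap of the same-way genes shows this per larva.

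**Figure D3:**
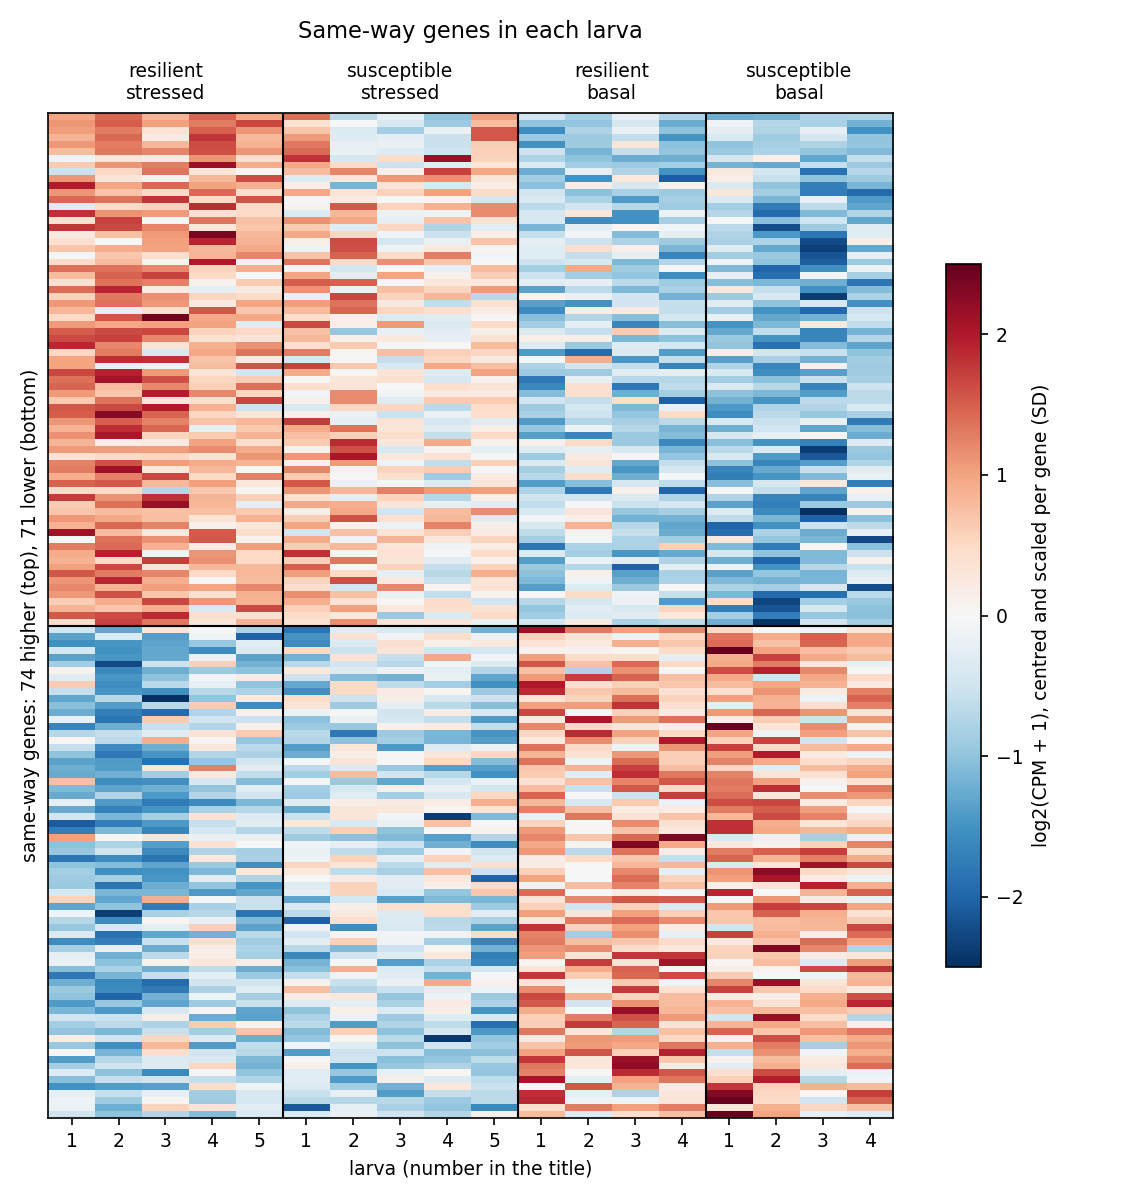
Level of the 145 same-way genes (one line per gene, 74 higher at the top and 71 lower at the bottom, ordered by averaged log2 fold change) in each of the 18 larvae (columns), as log2(CPM + 1) centred and divided by the SD per gene. Resilient stressed larvae carry the strongest colours, and susceptible stressed larvae are paler, with susceptible stressed larvae 1 and 5 standing out among the first genes.

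A few immediate early genes were higher after stress in both archetypes. Within susceptible larvae alone edgeR called none of egr1, ier2a, fosab and klf2b (adjusted p between 0.302 for egr1 and 0.515 for klf2b). egr1, a zinc finger transcription factor, had 50.7, 60.8, 65.4, 91.8 and 56.1 CPM in resilient stressed larvae and 57, 47.4, 31.3, 34.6 and 44 CPM in susceptible stressed larvae, against 33.6, 27.3, 26.9 and 27.6 CPM in resilient basal larvae and 24, 23.2, 30.5 and 26.7 CPM in susceptible basal larvae. Every stressed larva lay above the basal larvae of its own archetype, and the lowest susceptible stressed larva lay within the range of resilient basal larvae. egr1 rose by 0.95 ± 0.13 (SE) on the log2 scale, 1.18 ± 0.18 within resilient and 0.72 ± 0.18 within susceptible larvae (edgeR adjusted p = 0.0127 for the averaged contrast). The table also holds a numbered copy of egr1, which did not pass the filter on low counts, so reads could have been split. ier2a, an immediate early response gene, had 70.7, 91.3, 87.3, 106 and 82.2 CPM in resilient stressed larvae and 96, 43.4, 40.6, 37.2 and 63.8 CPM in susceptible stressed larvae, against 36.9, 26.5, 35.7 and 29.1 CPM in resilient basal larvae and 29.8, 31.9, 29.1 and 27.5 CPM in susceptible basal larvae. All 10 stressed larvae exceeded all 8 basal larvae. ier2a rose by 1.19 ± 0.16 (SE) (edgeR adjusted p = 0.0127), and its response did not pass the test of a difference between archetypes, with a 95% interval of -0.15 to 1.2 for resilient minus susceptible on the log2 scale.

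fosab, the Fos subunit of the AP-1 transcription factor, spread widely among susceptible stressed larvae. It had 182, 261, 165, 266 and 181 CPM in resilient stressed larvae and 249, 50.0, 71.5, 38.2 and 192 CPM in susceptible stressed larvae, against 58, 43.4, 72.5 and 45.9 CPM in resilient basal larvae and 32.1, 33.3, 46.2 and 46.8 CPM in susceptible basal larvae. All resilient stressed larvae were above all basal larvae, whereas among susceptible stressed larvae numbers 1 and 5 were far above the basal larvae, number 4 lay within the range of susceptible basal larvae, and numbers 2 and 3 lay within that of resilient basal larvae. fosab rose by 1.77 ± 0.33 (SE) on the log2 scale (edgeR adjusted p = 0.0259). klf2b, a Krüppel-like factor that responds to blood flow in endothelium, followed a like order, with 89, 122, 62.8, 147 and 86.7 CPM in resilient stressed larvae and 99.5, 47.3, 50.1, 41.9 and 130 CPM in susceptible stressed larvae, against 34.4, 34.6, 40.4 and 25 CPM in resilient basal larvae and 45.8, 34.9, 44.4 and 33.1 CPM in susceptible basal larvae. Susceptible stressed larvae 1 and 5 were again the highest of their group and number 4 lay among the basal values. klf2b rose by 1.25 ± 0.24 (SE) (edgeR adjusted p = 0.0265). The calls of fosab and klf2b ended without resilient stressed larva 2, resilient basal larva 1 or susceptible basal larva 2, with edgeR adjusted p between 0.0529 and 0.0634 for either gene.

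The immediate early lists held few further calls in edgeR. Of 12 tested AP-1 genes, fosab was the single one called (8.33% of the list, against 1.52% of all genes). In both archetypes 4 of the 12 were above 0 and 2 below 0, against 6058 and 6103 of all 22038 genes tested. The median of the AP-1 list was 0.09 in the averaged contrast, -0.11 in resilient and 0.36 in susceptible larvae. Of the 12, edgeR had 4 at an unadjusted p below 0.05, against 18.2% of all genes, while DESeq2 called 3 and limma-voom 1. Of 38 tested Egr, Nr4a, Ier, Npas4 and related genes, 5 rose and 1 fell (15.8%), with a list median of 0.15 against 0.00201 over all genes. In both archetypes 21 of the 38 were above 0 and 11 below 0. Of the 38, edgeR had 17 at an unadjusted p below 0.05, while DESeq2 called 12 and limma-voom 5. The edgeR calls that rose were egr1, ier2a, klf2b, dusp2 and egr2a, and the 1 that fell was mcl1b, a survival gene of the Bcl2 family. Of these, dusp2, egr2a and mcl1b were picked for naming after their values were seen. dusp2, a phosphatase that switches off MAP kinases, ranged over 23.2 to 48.6 CPM (median 31.3) in stressed and 16.7 to 26.2 CPM (median 22.5) in basal larvae, and rose by 0.52 ± 0.11 (SE) (edgeR adjusted p = 0.0281); it is a same-way gene whose call held in 14 of 18 leave-one-out fits. egr2a, of the egr1 family, ranged over 2.92 to 16.8 CPM (median 6.05) in stressed and 2.18 to 3.74 CPM (median 2.79) in basal larvae, with 1.66 ± 0.38 in resilient and 0.60 ± 0.37 in susceptible larvae, and its call held in 4 of 18 fits. npas4a, a neuronal activity gene, missed the threshold with an averaged log2 fold change of 0.44 ± 0.13 (SE) (edgeR adjusted p = 0.0849), and DESeq2 called it with an adjusted p of 0.0223. nr4a1, an orphan nuclear receptor, had an averaged value of -0.45 ± 0.26 (SE) (edgeR adjusted p = 0.374); it too has a numbered copy in the table.

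**Figure D4:**
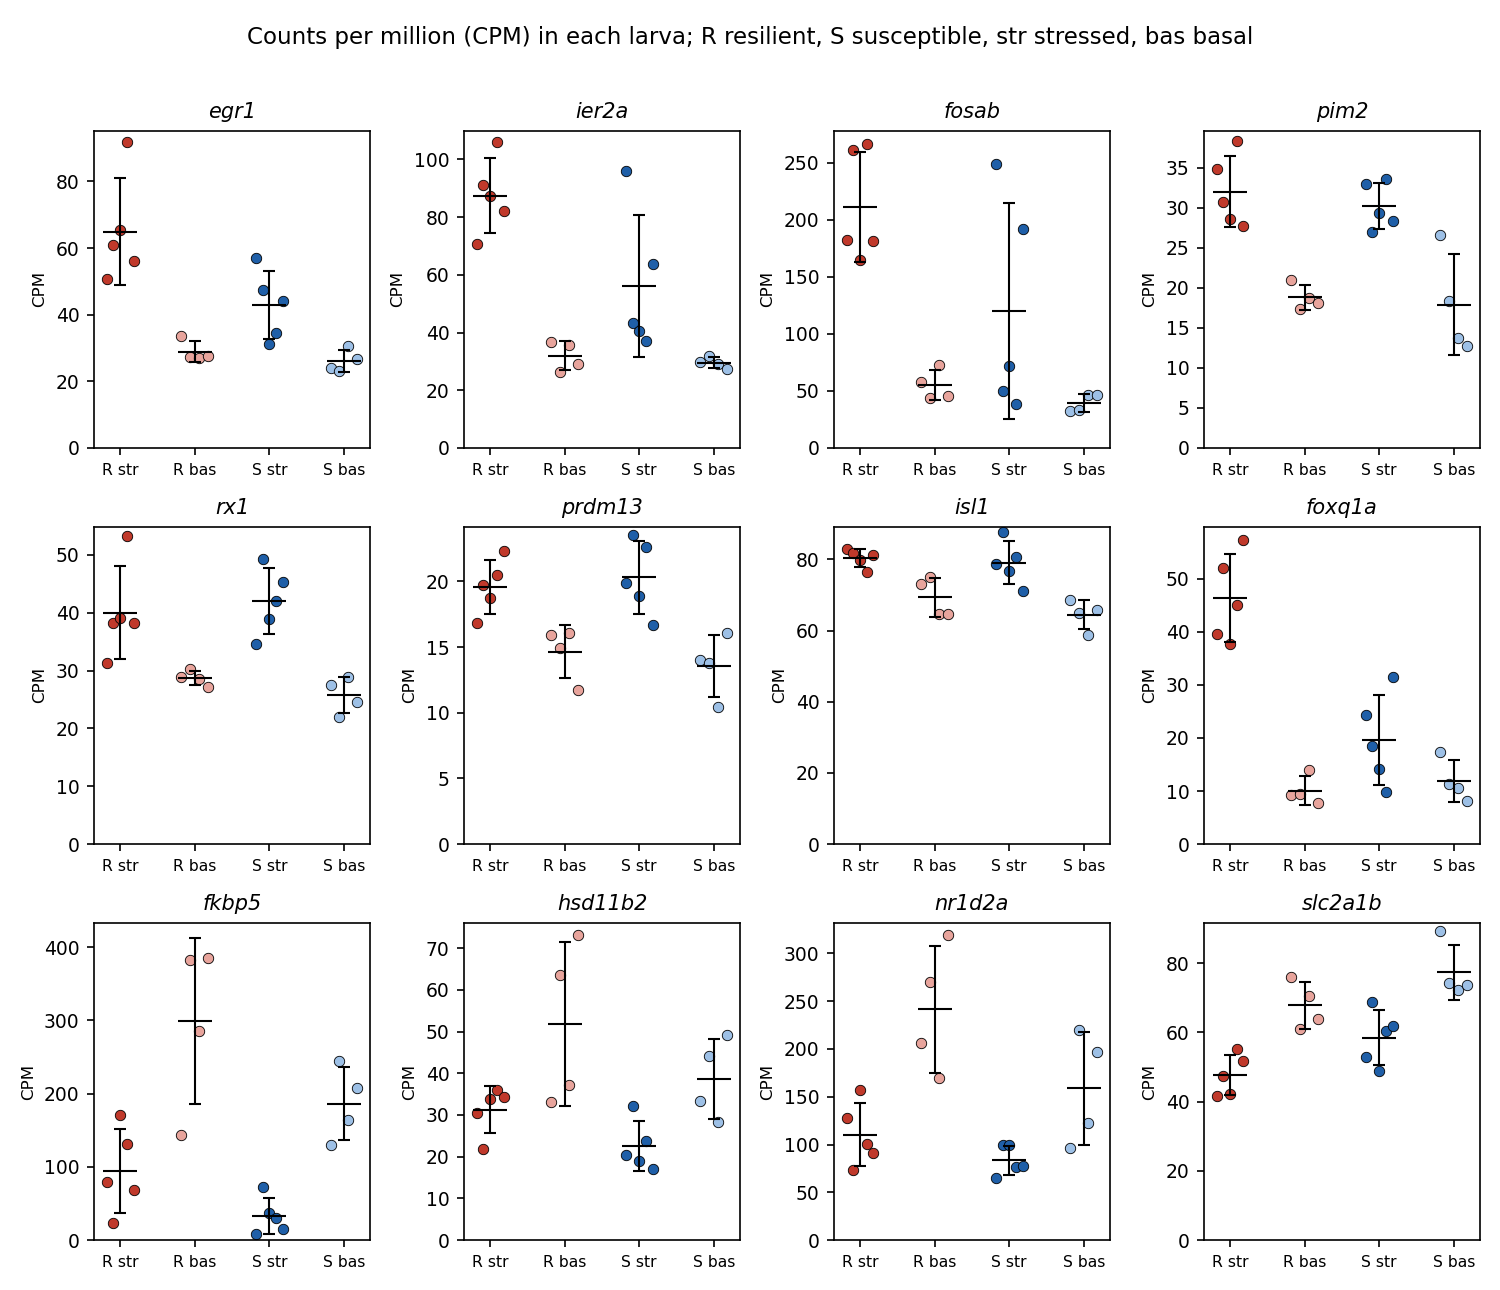
CPM of 12 same-way genes in each larva (points), with the group mean and SD (bars), for resilient stressed, resilient basal, susceptible stressed and susceptible basal larvae from left to right; each axis starts at 0. The first 8 genes are higher in stressed larvae and the last 4 lower, and fosab spreads widely among susceptible stressed larvae, where larvae 1 and 5 read 249 and 192 CPM.

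Outside the immediate early lists, the same-way genes with the smallest p-values included regulators of transcription, growth and stress. pim2, a serine/threonine kinase that promotes survival, had 34.8, 30.7, 28.6, 38.3 and 27.7 CPM in resilient stressed larvae and 33, 27, 29.3, 33.6 and 28.3 CPM in susceptible stressed larvae, against 21, 17.4, 18.7 and 18.1 CPM in resilient basal larvae and 26.6, 18.4, 13.8 and 12.8 CPM in susceptible basal larvae. All stressed larvae lay above all basal larvae, by little in susceptible basal larva 1. pim2 rose by 0.76 ± 0.12 (SE), 0.77 ± 0.17 in resilient and 0.74 ± 0.17 in susceptible larvae (edgeR adjusted p = 0.0129), with an interval of -0.46 to 0.51 for the difference between archetypes. foxq1a, a forkhead transcription factor, had 39.5, 52.1, 37.7, 45.1 and 57.3 CPM in resilient stressed larvae and 24.3, 18.5, 14.1, 9.84 and 31.4 CPM in susceptible stressed larvae, against 9.22, 9.36, 14 and 7.72 CPM in resilient basal larvae and 17.4, 11.4, 10.5 and 8.13 CPM in susceptible basal larvae. The resilient ranges were apart and the susceptible ranges overlapped. foxq1a rose by 1.46 ± 0.21 (SE), 2.2 ± 0.31 in resilient and 0.73 ± 0.30 in susceptible larvae (edgeR adjusted p = 0.0127 for the average and 0.138 for the difference between archetypes, with an interval of 0.59 to 2.36).

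Further genes of this kind rose by smaller amounts. cdkn1bb, an inhibitor of cyclin-dependent kinases, ranged over 78.9 to 116 CPM (median 90.4) in stressed and 63.6 to 81.7 CPM (median 74.5) in basal larvae, and rose by 0.34 ± 0.06 (SE) (edgeR adjusted p = 0.0135). hsf2, a heat shock transcription factor, ranged over 37.2 to 63.8 CPM (median 43.6) in stressed and 30.8 to 38.3 CPM (median 33.3) in basal larvae, and rose by 0.41 ± 0.07 (SE) (edgeR adjusted p = 0.0153). Within each archetype the ranges of cdkn1bb were apart, and those of hsf2 were apart in resilient larvae and overlapped in susceptible larvae. id1, which binds and blocks basic helix-loop-helix factors, ranged over 268 to 358 CPM (median 320) in stressed and 208 to 293 CPM (median 251) in basal larvae and rose by 0.38 ± 0.07 (SE). ric8a, a chaperone of G protein alpha subunits, ranged over 33.1 to 44.8 CPM (median 40.6) in stressed and 28.8 to 37.6 CPM (median 31.9) in basal larvae and rose by 0.30 ± 0.05 (SE) (edgeR adjusted p = 0.0183 for id1 and 0.0189 for ric8a). znf1159, a zinc finger gene, ranged over 8.59 to 11.7 CPM (median 9.73) in stressed and 6.37 to 8.22 CPM (median 7.41) in basal larvae without overlap and rose by 0.39 ± 0.06 (SE). cxcr3.3, a chemokine receptor gene with a numbered copy that did not pass the filter, ranged over 5.99 to 11.2 CPM (median 7.51) in stressed and 4.41 to 6.41 CPM (median 5.31) in basal larvae and rose by 0.61 ± 0.09 (SE) (edgeR adjusted p = 0.0135 for znf1159 and 0.0127 for cxcr3.3). For resilient minus susceptible, the 95% intervals of cxcr3.3 (0.21 to 1.00), hsf2 (0.11 to 0.69) and cdkn1bb (0.03 to 0.50) lay above 0, while none of them passed the adjusted test of the difference (edgeR adjusted p = 0.171, 0.216 and 0.317). The calls of these 6 genes, of pim2 and of foxq1a held with each larva left out. With a block by bracket number pim2 alone of them stayed called.

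Some further genes were picked after their values were seen. cited2, a transcriptional co-regulator, ranged over 32.9 to 40.7 CPM (median 34.9) in stressed and 28.5 to 32.1 CPM (median 30.1) in basal larvae without overlap, and rose by 0.24 ± 0.05 (SE). rnf165a, a RING finger gene, ranged over 22.7 to 30.2 CPM (median 24.8) in stressed and 18.5 to 22.2 CPM (median 21) in basal larvae, again without overlap, and rose by 0.29 ± 0.06 (SE) (edgeR adjusted p = 0.0312 for cited2 and 0.0322 for rnf165a). pnrc2, a nuclear receptor coactivator, and its numbered copy were both called, with 0.32 ± 0.07 (SE) and 0.28 (edgeR adjusted p = 0.0296 and 0.0384). The inflammation genes tnfb and ptgs2b, in contrast, were named by the rule for named genes. tnfb, a tumour necrosis factor, ranged over 2.79 to 5.99 CPM (median 4.02) in stressed and 1.21 to 3.56 CPM (median 2.18) in basal larvae, and rose by 0.83 ± 0.19 (SE) (edgeR adjusted p = 0.039). ptgs2b, a prostaglandin synthase, rose by 1.21 ± 0.24 (SE) (edgeR adjusted p = 0.0278), but with an unadjusted p of 0.056 within susceptible larvae it was no same-way gene. Calls held in 13 of 18 leave-one-out fits for cited2 and pnrc2, in 15 for ptgs2b, in 9 for rnf165a and in 7 for tnfb.

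Several same-way genes that rose encode transcription factors known from the eye and forebrain. rx1, a retinal homeobox gene, had 31.3, 38.2, 39.1, 53.3 and 38.3 CPM in resilient stressed larvae and 34.6, 49.3, 39, 42.1 and 45.3 CPM in susceptible stressed larvae, against 28.9, 30.2, 28.5 and 27.2 CPM in resilient basal larvae and 27.5, 22, 28.9 and 24.5 CPM in susceptible basal larvae. All 10 stressed larvae were above all 8 basal larvae, the lowest of them resilient stressed larva 1. rx1 rose by 0.60 ± 0.09 (SE), 0.48 ± 0.13 in resilient and 0.71 ± 0.13 in susceptible larvae (edgeR adjusted p = 0.0127). The 95% interval of resilient minus susceptible was -0.61 to 0.15 for rx1.

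Of these genes and the neuronal genes below, rx1 and snap25b were named by the rule for named genes. The others were noticed among the same-way genes after their values were seen, with no list or test behind the grouping. prdm13, which specifies retinal amacrine cells, had 16.8, 19.7, 18.7, 20.5 and 22.3 CPM in resilient stressed larvae and 19.9, 23.5, 18.9, 22.6 and 16.7 CPM in susceptible stressed larvae, against 15.9, 14.9, 16.1 and 11.7 CPM in resilient basal larvae and 14, 13.8, 10.4 and 16.1 CPM in susceptible basal larvae. The stressed and basal values did not overlap, though they came within 1 CPM of each other. prdm13 rose by 0.49 ± 0.09 (SE) (edgeR adjusted p = 0.0219). isl1, a LIM homeobox gene of retinal, motor and other neurons, ranged over 71.2 to 87.7 CPM (median 80.3) in stressed and 58.8 to 74.9 CPM (median 65.3) in basal larvae and rose by 0.25 ± 0.05 (SE). dmbx1a, a homeobox gene of midbrain and retina, ranged over 26.6 to 35.5 CPM (median 30.6) in stressed and 23.1 to 27.1 CPM (median 24.1) in basal larvae and rose by 0.32 ± 0.06 (SE) (edgeR adjusted p = 0.0248 for isl1 and 0.0237 for dmbx1a). The calls of rx1, prdm13, isl1 and dmbx1a held with each larva left out. Without resilient stressed larvae 2 and 3 together, or with a block by bracket number, rx1 alone of these genes stayed called. With 1 surrogate variable none of them did.

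pax6a and six3b, which pattern eye and forebrain, rose by 0.31 ± 0.07 (SE) and 0.30 ± 0.06 (SE) (edgeR adjusted p = 0.0329 and 0.0303). pax6a ranged over 86.4 to 112 CPM (median 92.4) in stressed and 66.6 to 91.8 CPM (median 73.7) in basal larvae, and six3b over 44.8 to 60.1 CPM (median 47.9) in stressed and 33.4 to 46.5 CPM (median 39.6) in basal larvae. In either gene the ranges overlapped over all larvae; those of six3b were apart within both archetypes, and those of pax6a within susceptible larvae. rx3, an eye field gene that also acts in the hypothalamus, rose by 0.43 ± 0.10 (SE), sp8a and sp8b, zinc finger factors of the forebrain, by 0.40 ± 0.08 (SE) and 0.27 ± 0.07 (SE), and fezf1, a forebrain zinc finger factor, by 0.35 ± 0.08 (SE) (edgeR adjusted p between 0.0297 for sp8a and 0.0451 for rx3). Among genes that work in mature neurons, lrit1a, a photoreceptor synapse protein, rose by 0.51 ± 0.11 (SE), opn4b, a melanopsin, by 0.48 ± 0.11 (SE), drd1b, a dopamine receptor, by 0.42 ± 0.09 (SE), and snap25b, a vesicle fusion protein, by 0.20 ± 0.05 (SE) (edgeR adjusted p between 0.0312 for lrit1a and 0.0411 for snap25b). Their calls were less stable: they held in 13 of 18 leave-one-out fits for six3b and sp8a, in 11 for lrit1a, in 10 for pax6a and opn4b, in 9 for drd1b, in 6 for fezf1 and sp8b, in 5 for snap25b and in 4 for rx3.

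Markers of mature eye and brain cells were measured beside this group. Of 33 tested photoreceptor and lens markers, 16 were above 0 in both archetypes, 0 were below 0 in both and 0 were called by edgeR, with 6 at an unadjusted p below 0.05, while DESeq2 called 2 and limma-voom 0. The median was 0.16 in the averaged contrast. Over all 22038 genes tested, 4014 (18.2%) were at an unadjusted p below 0.05 in the averaged contrast. Of all genes, 6058 were above 0 in both archetypes and 6103 were below 0 in both. Their summed level ranged over 9460 to 12700 CPM in resilient stressed and 9020 to 11300 CPM in susceptible stressed larvae, against 7900 to 10600 CPM in resilient basal and 7590 to 11100 CPM in susceptible basal larvae. Of 30 neuron and synapse markers, 15 were above 0 and 0 below 0 in both archetypes, 1 was called (snap25b, 3.33% of the list against 1.52% of all genes), and the median was 0.06. Their summed level was 4780 to 5170 CPM in resilient stressed and 4500 to 5140 CPM in susceptible stressed larvae, against 4690 to 5070 CPM in resilient basal and 4090 to 4790 CPM in susceptible basal larvae. The part of eye and neural tissue content in the rise of the transcription factors was not tested.

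Targets of the glucocorticoid receptor did not rise together. Of 35 tested glucocorticoid target genes, 0 rose and 2 fell (5.71% called, against 1.52% of all genes), with a list median of 0.06. Of the 35, edgeR had 11 at an unadjusted p below 0.05, against 18.2% of all genes, while DESeq2 called 5 and limma-voom 2. In both archetypes 12 of the 35 were above 0 and 9 below 0, against 6058 and 6103 of all 22038 genes tested. fkbp5, a co-chaperone of the receptor and a classical cortisol target, had one of the largest averaged changes among the named genes. It had 79.4, 23.9, 171, 131 and 68.5 CPM in resilient stressed larvae and 8.58, 72.5, 37.4, 30.9 and 15.1 CPM in susceptible stressed larvae, against 143, 382, 286 and 385 CPM in resilient basal larvae and 130, 244, 164 and 207 CPM in susceptible basal larvae. Susceptible stressed larvae were all below susceptible basal larvae, and in resilient larvae the stressed values reached into the basal range through larva 3. fkbp5 fell to a mean of 94.8 ± 57.2 CPM (SD) in resilient stressed and a mean of 32.9 ± 25 CPM (SD) in susceptible stressed larvae, against a mean of 299 ± 114 CPM (SD) in resilient basal and a mean of 186 ± 49.7 CPM (SD) in susceptible basal larvae. The averaged log2 fold change was -2.08 ± 0.41 (SE) (edgeR adjusted p = 0.0296). The call ended without susceptible stressed larva 5, resilient basal larva 3 or susceptible basal larva 2, with edgeR adjusted p between 0.0528 and 0.0681.

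hsd11b2, which inactivates cortisol, had 30.4, 21.8, 33.8, 36 and 34.4 CPM in resilient stressed larvae and 20.5, 32.2, 18.9, 23.8 and 17 CPM in susceptible stressed larvae, against 33.1, 63.6, 37.1 and 73.2 CPM in resilient basal larvae and 33.3, 44.1, 28.2 and 49.1 CPM in susceptible basal larvae. The groups overlapped in both archetypes, with resilient basal larvae 2 and 4 well above the rest. hsd11b2 fell by 0.75 ± 0.18 (SE) on the log2 scale, with -0.73 ± 0.25 in resilient and -0.78 ± 0.25 in susceptible larvae (edgeR adjusted p = 0.0441), and its call held in 5 of 18 leave-one-out fits. It was also the single call among 17 tested hormones, receptors and steroid enzymes of the stress axis (5.88%). The other glucocorticoid targets that were to be named did not pass the test. These were klf9 with -0.58 ± 0.30 (SE), per1a with -0.58 ± 0.19 (SE), tsc22d3 with -0.38 ± 0.46 (SE), sgk1 with -0.37 ± 0.21 (SE) and pck1, the rate-limiting enzyme of gluconeogenesis, with -0.66 ± 0.26 (SE) (edgeR adjusted p between 0.112 for per1a and 0.71 for tsc22d3). tsc22d3 and sgk1 have numbered copies, with -0.43 and 0.33 in the averaged contrast. Neither copy was called (edgeR adjusted p = 0.723 and 0.715). All 5 averaged values, those of the copies aside, were below 0, and edgeR called 0 of them in either archetype alone. In susceptible larvae per1a had an edgeR unadjusted p of 0.000476 and pck1 of 0.0189. By archetype, per1a had -0.02 ± 0.26 (SE) in resilient and -1.13 ± 0.27 (SE) in susceptible larvae. tsc22d3 had -0.78 ± 0.64 (SE) in resilient and 0.02 ± 0.66 (SE) in susceptible larvae. klf9, sgk1 and pck1 were below 0 in both archetypes.

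The hormones upstream of cortisol did not pass the test either. crhb, corticotropin-releasing hormone, had 8.45, 10.2, 10.6, 10.7 and 10.3 CPM in resilient stressed larvae and 8.69, 8.42, 5.83, 9.11 and 8.11 CPM in susceptible stressed larvae, against 4.93, 7.37, 6.95 and 6.68 CPM in resilient basal larvae and 7.54, 6.81, 8.35 and 6.57 CPM in susceptible basal larvae. All resilient stressed larvae were above all resilient basal larvae, and the susceptible groups overlapped. Its averaged log2 fold change was 0.39 ± 0.10 (SE), just outside the threshold (edgeR adjusted p = 0.053), with 0.63 ± 0.14 in resilient and 0.14 ± 0.14 in susceptible larvae. DESeq2 called it (adjusted p = 0.0092), as did edgeR with upper-quartile scaling and with any of 4 larvae left out (resilient stressed larva 5, susceptible stressed larva 3, resilient basal larva 2 or susceptible basal larva 3). pomca, the precursor of the pituitary hormone, had an averaged value of -0.03 ± 0.19 (SE) (edgeR adjusted p = 0.953). pyya, peptide YY, a gut and brain peptide, ranged over 13.6 to 24 CPM (median 16.6) in stressed and 18.7 to 36.6 CPM (median 24.4) in basal larvae and fell by 0.51 ± 0.11 (SE) (edgeR adjusted p = 0.0316; called in 9 of 18 leave-one-out fits), the single call among 26 hypothalamic neuropeptides (3.85%). sim1b, a transcription factor of neuroendocrine hypothalamic cells picked after its values were seen, ranged over 3.73 to 7.11 CPM (median 4.71) in stressed and 5.73 to 10.1 CPM (median 6.84) in basal larvae and fell by 0.57 ± 0.13 (SE) (edgeR adjusted p = 0.0346; called in 10 of 18 fits).

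nr1d2a, a nuclear receptor of the circadian clock (Rev-erb), was lower after stress in both archetypes, without a call within susceptible larvae alone (edgeR adjusted p = 0.394). It had 128, 73, 157, 101 and 91.4 CPM in resilient stressed larvae and 65.1, 99.4, 99.4, 76.6 and 77.2 CPM in susceptible stressed larvae, against 206, 270, 170 and 319 CPM in resilient basal larvae and 95.9, 220, 123 and 197 CPM in susceptible basal larvae. The resilient ranges were apart, and in susceptible larvae basal larva 1 lay among the stressed values. nr1d2a fell by 1.03 ± 0.19 (SE), with -1.13 ± 0.26 in resilient and -0.93 ± 0.26 in susceptible larvae (edgeR adjusted p = 0.0237), and the call ended without susceptible basal larva 2 (edgeR adjusted p = 0.0565). It was the single call among 34 clock genes (2.94%), whose median was 0.03.

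Among the same-way genes that fell were transporters and metabolic enzymes. slc2a1b, the glucose transporter Glut1, had 41.6, 47.5, 42.3, 55.1 and 51.6 CPM in resilient stressed larvae and 52.8, 68.7, 48.7, 60.5 and 61.7 CPM in susceptible stressed larvae, against 75.9, 60.9, 70.5 and 63.9 CPM in resilient basal larvae and 89.2, 74.3, 72.1 and 73.7 CPM in susceptible basal larvae. The ranges were apart within each archetype, and susceptible stressed larvae 2 and 5 reached resilient basal values. slc2a1b fell by 0.46 ± 0.08 (SE) (edgeR adjusted p = 0.0135), with an interval of -0.42 to 0.21 for resilient minus susceptible. It was the single call among 43 genes of glycolytic control and gluconeogenesis (2.33%), with a list median of -0.06. slc52a3, a riboflavin transporter, ranged over 1.73 to 4.83 CPM (median 2.97) in stressed and 4.54 to 8.22 CPM (median 6.03) in basal larvae and fell by 0.88 ± 0.17 (SE), and slc6a19a.1, a transporter of neutral amino acids, ranged over 14.3 to 60.9 CPM (median 35.4) in stressed and 49.4 to 103 CPM (median 71.1) in basal larvae and fell by 0.95 ± 0.21 (SE) (edgeR adjusted p = 0.0237 for slc52a3 and 0.0404 for slc6a19a.1). Stressed and basal larvae overlapped in both. The call of slc6a19a.1, picked after its values were seen, held in 7 of 18 leave-one-out fits.

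Conjugating enzymes were also among them. ugt5a1, a glucuronosyltransferase of a family found in fish, ranged over 0.998 to 3.27 CPM (median 1.84) in stressed and 2.64 to 4.9 CPM (median 3.45) in basal larvae and fell by 0.92 ± 0.17 (SE) (edgeR adjusted p = 0.0205). sult1st1, a cytosolic sulfotransferase, ranged over 30.9 to 47.4 CPM (median 38.1) in stressed and 42.5 to 55.7 CPM (median 49.7) in basal larvae and fell by 0.37 ± 0.07 (SE) (edgeR adjusted p = 0.0205 for the average and 0.34 for the difference between archetypes, with an interval of -0.60 to -0.02). enpp7.1_1, named after an intestinal sphingomyelinase of mammals, had low levels, 1.88 to 3.6 CPM (median 2.46) in stressed and 2.79 to 6.51 CPM (median 4.65) in basal larvae, and fell by 0.88 ± 0.14 (SE) (edgeR adjusted p = 0.0135). odc1, the rate-limiting enzyme of polyamine synthesis, picked after its values were seen, had 18.3, 13.9, 13, 19.3 and 23.6 CPM in resilient stressed larvae and 35.9, 19.8, 21.4, 23.8 and 25.3 CPM in susceptible stressed larvae, against 42.8, 26, 53.4 and 30.7 CPM in resilient basal larvae and 52.5, 34.9, 32.3 and 29.1 CPM in susceptible basal larvae. Resilient stressed larvae lay below all resilient basal larvae, and susceptible stressed larva 1 lay above 3 of the 4 susceptible basal larvae. odc1 fell by 0.84 ± 0.17 (SE) (edgeR adjusted p = 0.0296; called in 11 of 18 leave-one-out fits). Enterocyte markers, measured beside these genes, had 0 of 22 called by edgeR, DESeq2 or limma-voom, with a median of -0.03. In edgeR 4 of the 22 were at an unadjusted p below 0.05, against 18.2% of all genes. Of the 22, 1 was above 0 and 6 below 0 in both archetypes, against 6058 and 6103 of all 22038 genes.

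Further same-way genes that fell were adamts1, lamc1, tsku, rhoub, arpp21 and itpkcb. adamts1, a secreted metalloprotease, had 14.9, 18.7, 23.3, 26.2 and 20.6 CPM in resilient stressed larvae and 23, 27.6, 26, 18.6 and 28.4 CPM in susceptible stressed larvae, against 54.1, 36.1, 48 and 51.5 CPM in resilient basal larvae and 36.2, 28.8, 27.6 and 38.5 CPM in susceptible basal larvae. The ranges were apart in resilient larvae and overlapped in susceptible larvae. adamts1 fell by 0.80 ± 0.11 (SE), with -1.19 ± 0.16 in resilient and -0.41 ± 0.16 in susceptible larvae (edgeR adjusted p = 0.0127), and it was the gene still called with 1 surrogate variable. lamc1, a laminin chain of basement membranes picked after its values were seen, ranged over 152 to 185 CPM (median 167) in stressed and 182 to 205 CPM (median 193) in basal larvae and fell by 0.21 ± 0.04 (SE) (edgeR adjusted p = 0.0297; called in 12 of 18 leave-one-out fits). tsku, a secreted leucine-rich repeat protein, ranged over 31 to 45.9 CPM (median 37) in stressed and 40.9 to 56.1 CPM (median 47.6) in basal larvae and fell by 0.35 ± 0.06 (SE), and rhoub, a small GTPase, ranged over 51.3 to 62.3 CPM (median 55.6) in stressed and 57.5 to 74.4 CPM (median 68) in basal larvae and fell by 0.26 ± 0.05 (SE). arpp21, a cAMP-regulated phosphoprotein of neurons, ranged over 21.6 to 43.4 CPM (median 30.8) in stressed and 35.5 to 64 CPM (median 45.9) in basal larvae and fell by 0.56 ± 0.10 (SE) (edgeR adjusted p = 0.0183 for tsku, 0.0238 for rhoub and 0.0183 for arpp21). itpkcb, an inositol trisphosphate kinase picked after its values were seen, fell by 0.59 ± 0.13 (SE) (edgeR adjusted p = 0.0327; called in 11 of 18 fits). For resilient minus susceptible, the 95% intervals of adamts1 (-1.26 to -0.29) and arpp21 (-0.93 to -0.10) lay below 0, while neither passed the adjusted test of the difference (edgeR adjusted p = 0.152 and 0.268).

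nppb, a natriuretic peptide of the heart, had the largest averaged change of the named genes, at low levels. It had 0.783, 0.247, 0.519, 0.172 and 0.954 CPM in resilient stressed larvae and 0.965, 1.24, 0.788, 0.514 and 1.78 CPM in susceptible stressed larvae, against 3.47, 0.992, 2.46 and 3.3 CPM in resilient basal larvae and 23.8, 4.1, 1.21 and 1.02 CPM in susceptible basal larvae. Susceptible basal larva 1 read far above every other larva, and without it the averaged log2 fold change was -1.61 (edgeR adjusted p = 0.0506). With all larvae the averaged log2 fold change was -2.54 ± 0.58 (SE) (edgeR adjusted p = 0.0429), and the call held in 4 of 18 leave-one-out fits. It was the single call among 7 natriuretic peptide genes (14.3%). Slow and cardiac muscle markers, measured beside it, had 0 of 25 called by edgeR, with 6 at an unadjusted p below 0.05, against 18.2% of all genes. DESeq2 called 3 of these markers and limma-voom 1. Their median was -0.10.

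Some genes of blood cells and leukocytes fell after stress. srgn, serglycin, a proteoglycan of the granules of blood cells, had 3.21, 4.61, 5.48, 5.45 and 3.73 CPM in resilient stressed larvae and 6.33, 5.12, 3.86, 4.04 and 4.77 CPM in susceptible stressed larvae, against 14.4, 7.44, 17.1 and 8.85 CPM in resilient basal larvae and 6.76, 9.34, 7.14 and 11 CPM in susceptible basal larvae. All 10 stressed larvae were below all 8 basal larvae. srgn fell by 1.11 ± 0.17 (SE), with -1.39 ± 0.24 in resilient and -0.82 ± 0.24 in susceptible larvae (edgeR adjusted p = 0.0127); a numbered copy, at a mean of 2.09 CPM, had 0.82 in the averaged contrast and was not called (edgeR adjusted p = 0.5). srgn was the single call among 10 neutrophil markers (10%), of which 9 were below 0 in both archetypes, with a median of -0.58. Of all 22038 genes tested, 6103 were below 0 and 6058 above 0 in both archetypes. The carboxypeptidase gene cpa5 held 65.7% to 97.3% of the summed level of that list, and without it the sum was 112 to 217 CPM in resilient stressed and 161 to 297 CPM in susceptible stressed larvae, against 164 to 423 CPM in resilient basal and 152 to 485 CPM in susceptible basal larvae. Of 17 macrophage markers 10 were below 0 in both archetypes, 0 were above 0 in both, and 1 (5.88%) was called, irf8, a transcription factor of the macrophage lineage, with -0.53 ± 0.13 (SE) (edgeR adjusted p = 0.0473; called in 4 of 18 leave-one-out fits). Of the 17, edgeR had 13 at an unadjusted p below 0.05, against 18.2% of all genes. DESeq2 called 7 of the 17, limma-voom 0 and edgeR with upper-quartile scaling 0. Macrophage marker sums were 952 to 1350 CPM in resilient stressed and 1480 to 1920 CPM in susceptible stressed larvae, against 1420 to 2720 CPM in resilient basal and 1600 to 2310 CPM in susceptible basal larvae. The part of leukocyte number in the fall of srgn was not tested.

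apbb1ip, stat1b and peli1a fell as well, whereas cxcr3.3, tnfb and ptgs2b, given above, rose. apbb1ip, an adaptor for integrin activation in leukocytes, ranged over 15.6 to 20.0 CPM (median 17.5) in stressed and 17.8 to 26.9 CPM (median 23.5) in basal larvae and fell by 0.39 ± 0.07 (SE) (edgeR adjusted p = 0.0219), a call that ended without susceptible basal larva 2 (edgeR adjusted p = 0.0565). stat1b, which relays interferon signals, and peli1a, a ubiquitin ligase of Toll-like receptor signalling, were picked after their values were seen and fell by 0.92 ± 0.21 (SE) and 0.76 ± 0.15 (SE) (edgeR adjusted p = 0.0411 and 0.0278). stat1b was called in 7 and peli1a in 14 of the 18 leave-one-out fits.

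hmbsa and hmbsb, copies of an enzyme of heme synthesis, fell by 0.52 ± 0.13 (SE) and 0.82 ± 0.19 (SE) on the log2 scale (edgeR adjusted p = 0.0488 and 0.0418). hmbsb had 9.31, 7.65, 6.46, 13.5 and 13.5 CPM in resilient stressed larvae and 17.7, 12.9, 15.6, 26.5 and 17.8 CPM in susceptible stressed larvae, against 19.5, 15.9, 23.1 and 16 CPM in resilient basal larvae and 30.3, 46.9, 19.5 and 25.3 CPM in susceptible basal larvae. Susceptible basal larva 2 was the highest, and susceptible stressed larva 4 lay above susceptible basal larvae 3 and 4. Either call held in 5 of 18 leave-one-out fits. They were the calls among 19 erythrocyte markers (10.5%), whose median was -0.40. Of the 19, edgeR had 11 at an unadjusted p below 0.05, against 18.2% of all genes. DESeq2 called 5 of the 19, limma-voom 2 and edgeR with upper-quartile scaling 1. In both archetypes 15 of the 19 were below 0 and 0 above 0, against 6103 and 6058 of all 22038 genes tested. Erythrocyte marker sums were 713 to 1180 CPM in resilient stressed and 880 to 1430 CPM in susceptible stressed larvae, against 767 to 1010 CPM in resilient basal and 1120 to 2460 CPM in susceptible basal larvae, where larvae 1 and 2 were the highest. The part of red cell number in the values of hmbsa and hmbsb was not tested.

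Calls in the averaged contrast did not all come from both archetypes. Of the 334 called genes, 12 (0.0545% of all genes tested) were also among the 31 genes (0.141%) called in the test of a difference between the archetypes' responses. Of the 145 same-way genes edgeR called 0 there, DESeq2 1 and limma-voom 0. In edgeR 8 of the 145 (0.0363% of all genes tested) were at an unadjusted p below 0.05, against 2880 of all genes (13.1%). The same-way rule itself favours genes with like responses, so these counts do not test whether the archetypes agree. c7a, a component of the terminal complement pathway, had 16.4, 11.4, 13.8, 8.21 and 12 CPM in resilient stressed larvae and 23.9, 42.7, 30.2, 30.8 and 26.3 CPM in susceptible stressed larvae, against 39.3, 37.2, 41.7 and 35.8 CPM in resilient basal larvae and 31.2, 35.7, 23.8 and 22.5 CPM in susceptible basal larvae. Resilient stressed larvae were below every other larva, and the susceptible groups overlapped. Its averaged log2 fold change of -0.76 ± 0.13 (SE) (edgeR adjusted p = 0.0183) combined -1.64 ± 0.19 in resilient and 0.12 ± 0.18 in susceptible larvae, a difference of -1.76 with a 95% interval of -2.32 to -1.21 (edgeR adjusted p = 0.0127 for the difference). timp2b, an inhibitor of metalloproteases, combined -1.73 ± 0.20 in resilient and 0.15 ± 0.20 in susceptible larvae (edgeR adjusted p = 0.0154 for the difference). il6st, the shared receptor subunit of the interleukin 6 family, combined -0.66 ± 0.07 and 0.04 ± 0.07, and stat3, the transcription factor below it, combined -0.65 ± 0.08 and -0.02 ± 0.08 in resilient and susceptible larvae (edgeR adjusted p = 0.0127 and 0.0459 for the difference).

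The same held for hspb1, asb10, tln2a and dysf. hspb1, a small heat shock protein, combined -1.50 ± 0.20 in resilient and -0.01 ± 0.19 in susceptible larvae, and asb10, a substrate adaptor of ubiquitin ligases, combined 1.48 ± 0.20 and -0.04 ± 0.19 (edgeR adjusted p = 0.0459 and 0.0423 for the difference). tln2a, a talin that links integrins to actin, combined -0.92 ± 0.11 and 0.15 ± 0.11, and dysf, a membrane repair protein of muscle, combined -1.06 ± 0.14 and 0.24 ± 0.14 (edgeR adjusted p = 0.0117 and 0.0127 for the difference). For such genes the average of the archetypes describes neither of them. The average of asb10 ended as a call without susceptible basal larva 2 (edgeR adjusted p = 0.0615); averages of tln2a were called in 14 and of dysf in 5 of 18 leave-one-out fits, and those of c7a, timp2b, il6st, stat3 and hspb1 in all 18. tln2a has a numbered copy in the table that was not called, so its reads could have been split.

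In the lists of complement, secreted liver protein, interleukin 6, inflammatory, heat shock, unfolded protein and muscle breakdown genes, the called members were not same-way genes, except for tnfb and hsf2. Their fold changes were larger in resilient than in susceptible larvae, a difference that passed the test for c7a, il6st, stat3, hspb1 and asb10. Of 36 complement genes 0 rose and 3 fell (8.33%), c7a, clu and cfhl1, the last with a numbered copy at -1.12 that was not called (edgeR adjusted p = 0.0825), and 27 were below 0 in both archetypes; the median was -0.52 in the averaged contrast, -0.99 in resilient and -0.12 in susceptible larvae. Of the 36, edgeR had 25 at an unadjusted p below 0.05, while DESeq2 called 13 and limma-voom 4. Of all 22038 genes tested, 18.2% were at an unadjusted p below 0.05 and 6103 were below 0 in both archetypes. Of 38 acute phase and secreted liver proteins 3 fell (7.89%), cp, itih3a and lcn15, with a median of -0.30 (DESeq2 called 7), and of 21 coagulation genes edgeR called 0, with 14 at an unadjusted p below 0.05, while DESeq2 called 3 and limma-voom 0. Of these 21 genes 17 were below 0 in both archetypes, with a median of -0.41. Summed levels of the liver protein list were 21400 to 28700 CPM in resilient stressed and 23400 to 30600 CPM in susceptible stressed larvae, against 25300 to 37400 CPM in resilient basal and 29400 to 39000 CPM in susceptible basal larvae. Of 26 interleukin 6, Stat3 and Socs genes 3 fell (11.5%), il6st, stat3 and lifrb, and the median was -0.04. Of 28 inflammatory cytokine and NF-kB genes 2 rose, tnfb and ptgs2b, and 1 fell, irf8 (10.7% called). Among the calls of the complement, liver protein and interleukin 6 lists, itih3a held in 15 of 18 leave-one-out fits and clu in 12. Less stable were lcn15 (11 fits), cp (9), lifrb (8) and cfhl1 (7).

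Protein quality control genes went both ways. Of 32 heat shock and chaperone genes 1 rose, hsf2, and 2 fell, hspb1 and the mitochondrial chaperonin hspd1 (9.38%), with a median of -0.11 in the averaged contrast, -0.23 in resilient and 0.02 in susceptible larvae. Of 40 genes of the unfolded protein and integrated stress responses 3 rose and 2 fell (12.5%). Of the 40, edgeR had 20 at an unadjusted p below 0.05, against 18.2% of all genes, while DESeq2 called 9 and limma-voom 4. ddit3 and ppp1r15a, which act in the integrated stress response, rose by 0.40 ± 0.08 (SE) and 0.38 ± 0.08 (SE), and canx and dnajc3b, of the endoplasmic reticulum, fell by 0.35 ± 0.08 (SE) and 0.40 ± 0.10 (SE) (edgeR adjusted p between 0.0271 for ddit3 and 0.0456 for dnajc3b). The fifth gene called by edgeR was si:ch211-160e1.5. Of these genes, dnajc3b was picked for naming after its values were seen. canx combined -0.66 ± 0.11 in resilient and -0.04 ± 0.11 in susceptible larvae, and dnajc3b -0.79 ± 0.14 and -0.01 ± 0.14. Neither passed the adjusted test of the difference (edgeR adjusted p = 0.085 and 0.0905). Calls held in 14 of 18 leave-one-out fits for ddit3, in 13 for hspd1, in 9 for ppp1r15a and canx and in 5 for dnajc3b. Of 23 genes of muscle protein breakdown and ubiquitin 3 rose (13%), asb10, map1lc3a and foxo4. The list median was 0.14 in the averaged contrast, 0.29 in resilient and -0.03 in susceptible larvae. The calls of asb10, map1lc3a and foxo4 held in 17, 14 and 6 of 18 leave-one-out fits.

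Several lists had no call in edgeR. Of all 22038 genes tested, 18.2% were at an unadjusted p below 0.05, and 6058 were above 0 and 6103 below 0 in both archetypes. Of 66 cytosolic ribosomal protein genes 0 were called by edgeR, DESeq2 or limma-voom, with 1 at an unadjusted p below 0.05 in edgeR, and 51 were above 0 in both archetypes, with a median of 0.08. Of 42 cell proliferation genes 0 were called by any of the 3 tools, with 5 at an unadjusted p below 0.05 in edgeR. Of the 42, 32 were below 0 in both archetypes, with a median of -0.36, and their summed level was 802 to 2010 CPM in resilient stressed and 1160 to 2300 CPM in susceptible stressed larvae, against 1410 to 2330 CPM in resilient basal and 1460 to 2130 CPM in susceptible basal larvae. Exocrine pancreas markers had 0 of 21 called by any of the 3 tools, 1 at an unadjusted p below 0.05 in edgeR, and a median of 0.22, 0.55 in resilient and -0.10 in susceptible larvae; their summed level was 3950 CPM in susceptible basal larva 2 and between 12800 and 36200 CPM in the other larvae. Lists of hypoxia genes (30 tested), insulin, glucagon and growth factor genes (22), aryl hydrocarbon receptor genes (11), fast muscle markers (29) and ionocyte markers (18) also had 0 calls in edgeR and limma-voom, between 1 and 6 members each at an unadjusted p below 0.05, and medians between -0.03 and 0.03. DESeq2 called 1 gene in each of the hypoxia, insulin and ionocyte lists. The signs of the list medians were the same under the 3 scalings of libraries that were run, except for the aryl hydrocarbon receptor genes, with 0.0111 under upper-quartile scaling and -0.000548 under TMM scaling.

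**Figure D5:**
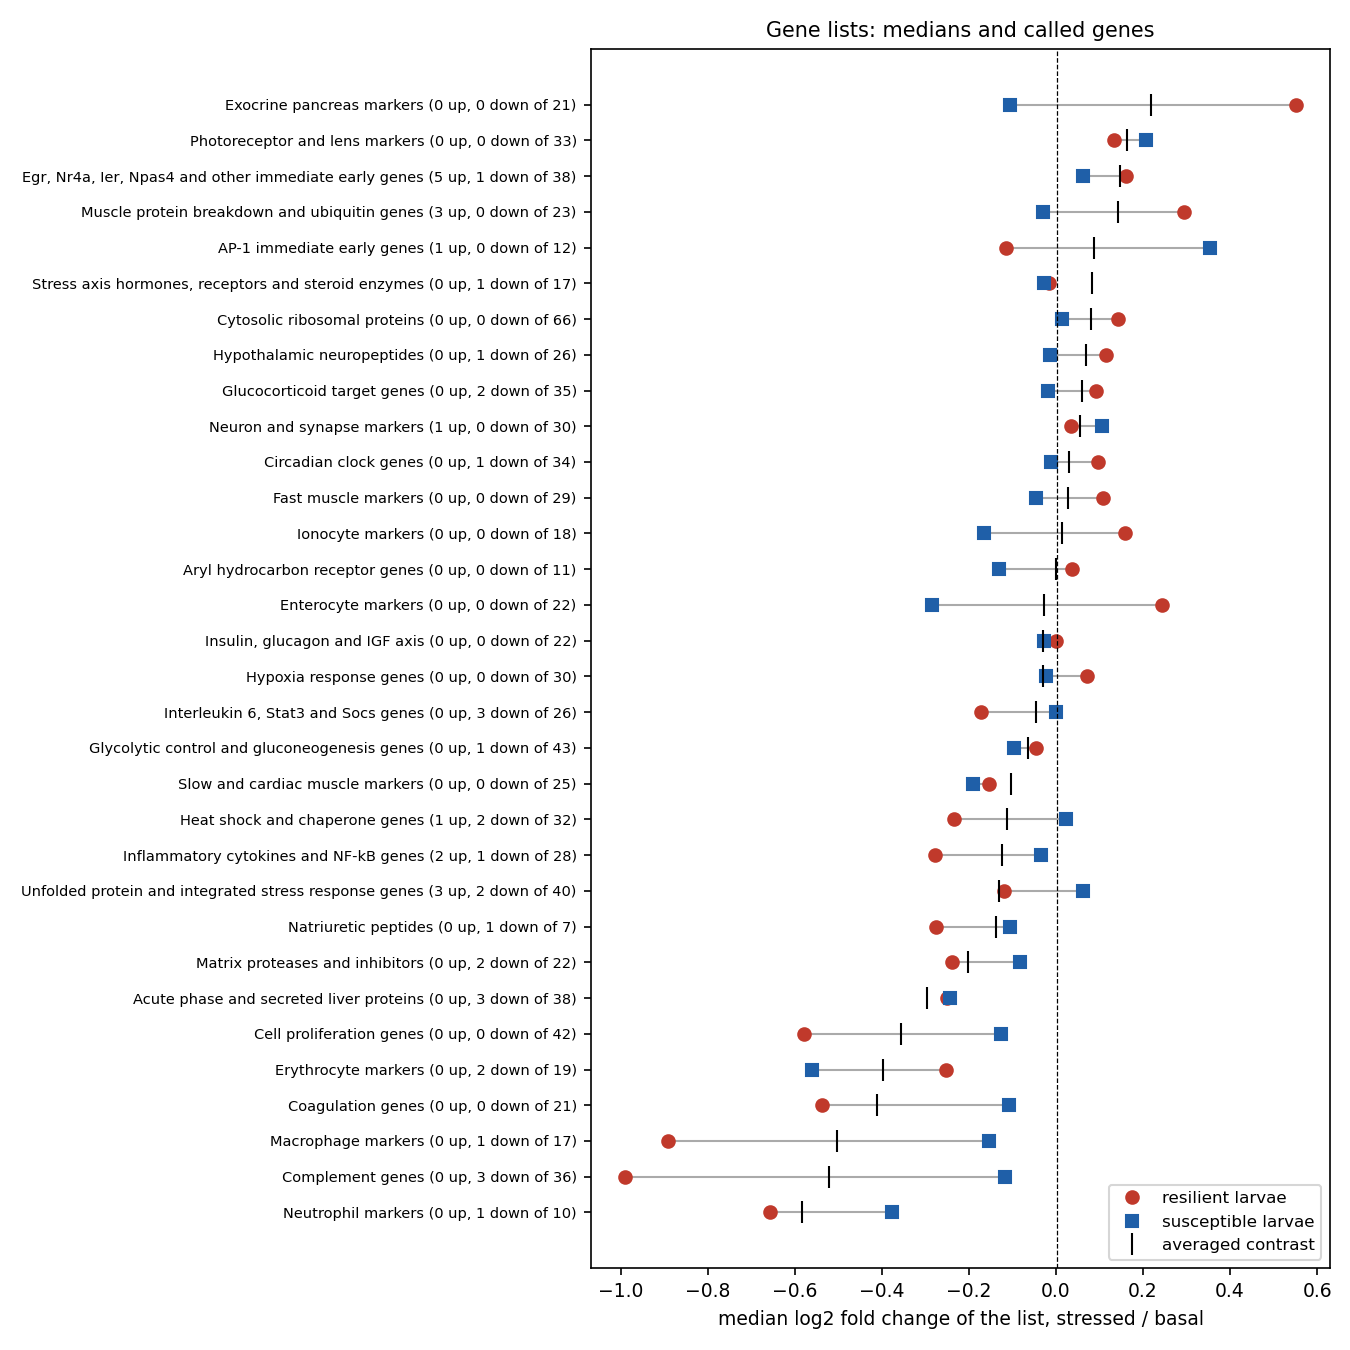
Median log2 fold change of each gene list, stressed over basal, in resilient larvae (circles), susceptible larvae (squares) and the averaged contrast (bars), with the number of called genes of each list in its label; the dashed line marks the median over all genes tested. Complement, macrophage and neutrophil genes lie lowest, at -0.52, -0.50 and -0.58 in the averaged contrast, and the photoreceptor and lens list is among those above 0 in both archetypes.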

How the data were processed

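RNA of 18 single whole larvae was sequenced, and the authors deposited 1 table with raw read counts per gene and larva. The submitters' processing notes name the genome build danRer11 and the tools STAR, cutadapt and DESeq2, without versions; the counting step is not given in the sources here. Of 25281 listed genes, 15 carried a date in place of a name (0.0613% to 0.0698% of reads) and were left out, and 22038 passed edgeR's low-count filter.

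Counts were scaled by TMM and fitted with edgeR 4.0.16 (quasi-likelihood, robust; R 4.3.3) with 4 group means over all 18 larvae, and p-values were Benjamini-Hochberg adjusted over all genes tested. Each larva is a separate animal; since clutch and day are not given, p-values measure the spread between these larvae. No 2 libraries of a group agreed within sampling noise (32 pairs, lowest chi-square per degree of freedom 6.61). The design text states 5 replicates, and the basal groups held 4 here.

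The named genes were up to 12 same-way genes per direction with the smallest p among those of at least 1 CPM, up to 3 called members per gene list, a fixed panel, and genes with the strongest difference between archetypes; genes picked after their values were seen are marked as such. Of 1032 entries in 32 lists, 915 matched a gene and 835 genes were tested. The contrast, members and lists were chosen with earlier results of these data known. Alternatives were DESeq2 1.42.0, limma 3.58.1 (voom with sample weights), other scalings and filters, blocks by replicate number, 1 surrogate variable (sva 3.50.0), simpler designs, and larvae left out singly or in pairs. On simulated counts for 21846 genes, the averaged contrast recovered 64.7% of genes changed by 0.5, 92.4% by 1 and 98.5% by 2 on the log2 scale. Of the 178 calls there, 8 (4.49%) were unchanged genes. The simulated larvae varied independently around a common mean per gene, with the same change in both archetypes. These rates therefore need not hold for the real larvae, where calls depended on single larvae. Some genes that the naming rule covers are not reported here.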

Additional observations from a re-analysis of the deposited data

Results flagged for a closer look

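The named genes in each of the 4 groups of larvae made 368 groups of values. Of these, 13 held a larva set apart from the others of its group, by Dixon's ratio of the gap to the range. Chance alone gives about 1 in 20. The 13 are fewer than that rate would give, so they are listed as a description and not as outlying larvae. By gene, the ratio was 0.894 for egr1 in resilient basal larva 1 (33.6 CPM, the others at 26.9 to 27.6 CPM), 0.868 for slc2a1b in susceptible basal larva 1 (89.2 CPM, the others at 72.1 to 74.3 CPM) and 0.865 for nppb in the same larva (23.8 CPM, the others at 1.02 to 4.1 CPM). In resilient stressed larvae it was 0.788 for nr4a1 in larva 4 (9.76 CPM), 0.767 for crhb in larva 1 (8.45 CPM, below the others), 0.739 for pck1 in larva 3 (974 CPM), 0.768 for six3b in larva 5 (52.7 CPM) and 0.718 for sim1b in larva 1 (5.09 CPM). In susceptible stressed larvae it was 0.745 for cited2 in larva 1 (40.2 CPM), 0.814 for lrit1a in larva 2 (29.8 CPM), 0.742 for itpkcb in larva 2 (47.5 CPM) and 0.779 for egr2a in larva 1 (9.33 CPM). For sim1b in resilient basal larva 1 it was 0.848 (8.77 CPM). No larva held more than 2 of the 13.

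The responses of the archetypes differed by edgeR's test of the difference itself for 9 named genes. The adjusted p was 0.0117 for tln2a, 0.0127 for il6st, dysf and c7a, 0.0154 for timp2b, 0.0218 for socs3b, 0.0423 for asb10 and 0.0459 for stat3 and hspb1. Of these, socs3b, a feedback inhibitor of Stat3 signalling, was not called in the averaged contrast, with -0.76 ± 0.12 (SE) in resilient and 0.25 ± 0.12 (SE) in susceptible larvae on the log2 scale.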

How the results depend on the processing

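The 82 called genes chosen for naming kept their sign under every setting run, which adds little, since the settings reuse most of the same larvae. Their calls mostly did not hold beyond changes of tool, scaling or filter. DESeq2 called all 82, limma-voom 77, upper-quartile scaling 80 and no filter 79. The additive design called 34, and the design without an archetype term 8. Over all genes, the averaged contrast had 975 calls by DESeq2, 50 by the additive design, 9 without an archetype term, 1 with 1 surrogate variable, 42 at a log2 change of 1 or more in size, and 43, 0 and 15 without susceptible basal larvae 1 and 2, resilient basal larvae 1 and 3, and resilient stressed larvae 2 and 3. The same-way genes were 256, 1, 17, 25, 0 and 13 for DESeq2, the surrogate variable, the fold change limit and these 3 pairs. Neither replicate number met the rule for pairing, a correlation of deviations over 0.1 in every pair: by title number 1 of 25 pairs was over it (-0.275 to 0.146), and by the number in brackets 6 of 19 (-0.149 to 0.236). By these numbers 1 and 8 larvae correlated best with their own number, a hint from the data and not the design. How many would do so by chance was not counted, and whether the bracket number marks a shared batch was not tested. The adjusted p-values given for genes above are from fits without a block. With the replicate block by title number there were 0 calls in edgeR (3684 at an unadjusted p below 0.05) and 0 same-way genes, and by bracket number 4 and 3. Of the 82 named calls, 0 held with the title block and 3 with the bracket block (rx1, pim2 and c7a). Within resilient larvae the counts were 863 and 427 under these blocks, 38 and 69 without resilient basal larvae 1 and 3 and without resilient stressed larvae 2 and 3, and 284 at the fold change limit. Within susceptible larvae they were 48 by DESeq2 and 1 without susceptible basal larvae 1 and 2. For the difference between archetypes they were 417 by DESeq2, 65 by limma-voom, 14 and 8 under the blocks, 6 without either resilient pair, and 84 with the surrogate variable. With 1 larva left out, counts ranged over 55 to 679 in the averaged contrast, 33 to 214 for same-way genes, 398 to 1918 within resilient larvae, 0 to 13 within susceptible larvae and 5 to 133 for the difference. The value of pomca, not called, ranged over -0.117 to 0.130 with 1 larva left out, and was above 0 in place of below it without resilient stressed larvae 2 and 3 (0.00713), with the surrogate variable (0.0717), and without resilient stressed larva 3 (0.0198), susceptible stressed larva 2 (0.0123) or 3 (0.0379), resilient basal larva 4 (0.130) or susceptible basal larva 2 (0.00106). The cause of these changes was not tested.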
